A study of Homo sapiens with 24 samples.

Results

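A set of 37 genes that regulate the splicing of pre-mRNA was followed through the whole-genome expression study of cells transfected with SIRT6. The members were 12 SR proteins, 2 TRA2 proteins, 4 CLK kinases, the cyclophilin NKTR with the 2 cyclins L, 8 RS-rich coactivators and speckle proteins, 3 LUC7-like proteins with PRPF38B, and 4 RBM proteins. They were taken by gene symbol, out of 19775 genes on the array with a probe set of their own. The list was drawn up with earlier results of these data known. A probe set is a group of short probes that reads 1 transcript or a few related ones, and the brightest probe set of each gene, by its mean over all arrays, stood for the gene. In this way 35 of the 37 were measured. The other 2, SRSF2 and SRSF9, are read only by probe sets that name a further gene as well, and were given no value.

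The arrays came from HEK293 cells, a human embryonic kidney line grown in 6-well plates, in 8 conditions with 3 biological replicates each. Cells were transfected for 24 h with a plasmid for Flag-tagged H133W, a form of SIRT6 with its catalytic histidine replaced and no deacetylase activity, with a plasmid for Flag-tagged wild type SIRT6, with the pCDNA3 vector alone (empty vector), or with no DNA (untransfected). Each kind of cell was then taken with TNFα at 10 ng/ml or with the carrier solution alone (resting). The time with TNFα is not settled, since the sources name both 1 h and 4 h. All conditions keep the SIRT6 of the cells themselves, and the transfection is transient, so that each well holds cells with and without the plasmid. Fewer responding cells and less RNA per cell cannot be told apart in such bulk samples, and with 3 arrays in a condition the precision is limited. Values are log2 intensities after RMA normalization, so that a difference of 1 is a doubling.

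SR proteins carry an RNA recognition motif and a tail rich in arginine and serine (RS domain). They bind exons and help the spliceosome to find splice sites, and they gather in nuclear speckles. CLK kinases phosphorylate the RS domain and thereby release SR proteins from the speckles. The other members carry RS-rich stretches themselves, sit in the speckles or join the early spliceosome, and transcripts of many of these genes are themselves alternatively spliced.

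The 24 arrays were alike in level, with medians between 5.30 and 5.38, and replicates correlated at 0.9843 to 0.9984. The markers VIM, KRT8, KRT18 and the neurofilament gene NEFL, which are known from HEK293 cells, were bright (medians 9.64 to 12.3), INA stood at 7.81, and NEFM and PAX2 lay near the array median. Blood cell markers were low (PTPRC 2.76, CD3E 2.06, CD14 4.06, HBB 4.64), and 1 of the 4 measured, CD14, passed in a single comparison, being higher by 0.63 in SIRT6 + TNFα than in empty vector + TNFα cells. Of the fibroblast markers COL1A1 and COL3A1 stood at 7.33 and 7.44 and COL1A2, DCN and LUM at 2.57 to 3.76, and none of the 5 passed in any comparison. On 2 arrays the 3′ end of β-actin was read far above its 5′ end, a sign of poor RNA or incomplete copying. The log2 difference stood at 3.03 on H133W + TNFα replicate 3, at 2.05 on empty vector replicate 2 and at 1.33 to 1.79 on all others. The SIRT6 probe sets are not known to read the plasmid, so that they do not check the transfection.

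Many probe sets of the splicing genes read low on the same arrays. Of their 139 probe sets, counting 104 beside the brightest ones, 95 were lowest of the 3 replicates on H133W + TNFα replicate 3 and 76 on empty vector replicate 2. The other 22 arrays were lowest on 9 to 86, so that empty vector replicate 2 did not stand apart by this count. On the same 2 arrays 46 and 18 probe sets lay more than 0.5 below the mean of the other replicates, against 0 to 6 on the other 22 arrays. Calls of members that rest on either array are therefore given with and without it, and the part of RNA quality in them was not tested. Since all conditions share the estimate of the spread, leaving out H133W + TNFα replicate 3 also moved adjusted p-values of comparisons that do not hold it. These are given where the call of a brightest probe set changed. That alternative was chosen after the data were seen.

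**Figure D1:**
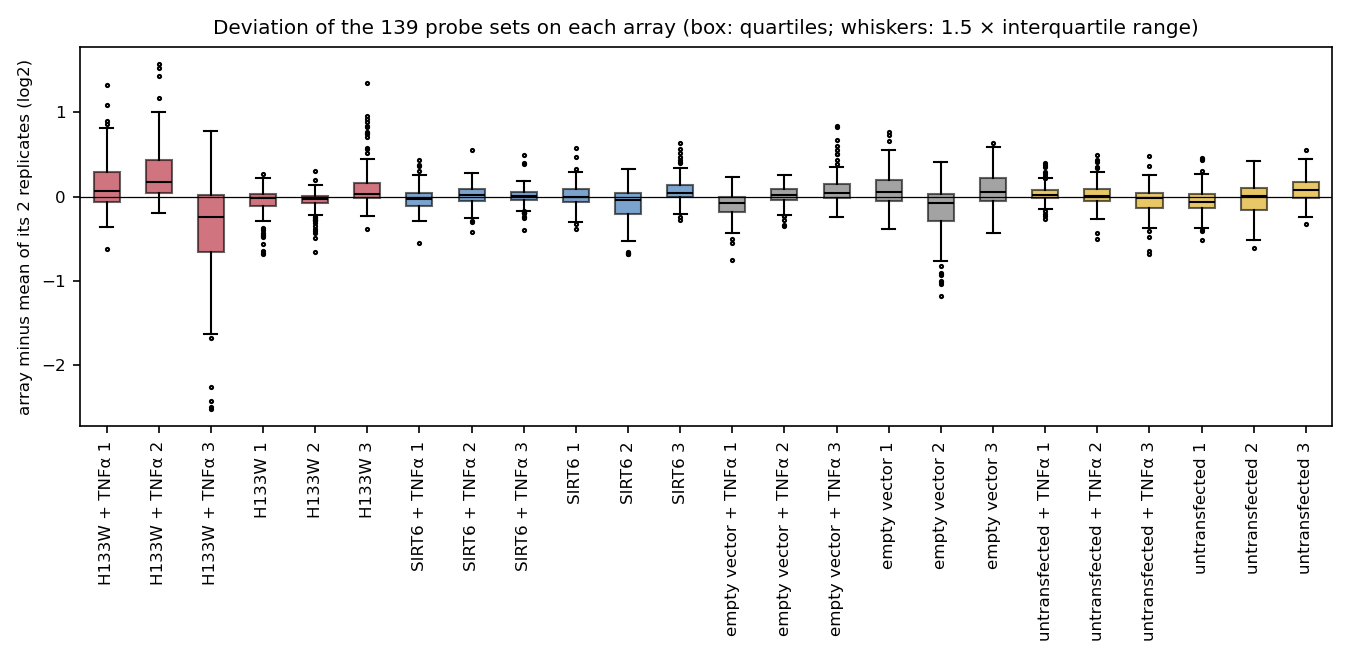
Deviation of the 139 splicing gene probe sets from the mean of the 2 other replicates (log2), for each of the 24 arrays (box, quartiles; line, median; whiskers, 1.5 times the interquartile range; points, probe sets beyond them). H133W + TNFα replicate 3 lies lowest, with 46 probe sets more than 0.5 below its replicates, followed by empty vector replicate 2 with 18.

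The first question was how the deacetylase-dead H133W protein changed these genes against empty vector in resting cells. A transcript was called where its adjusted p lay under 0.05 and it differed more than 1.5-fold (0.58 on the log2 scale), by limma with 1 mean per condition fitted to all 24 arrays and Benjamini-Hochberg adjustment over 54675 probe sets. NKTR, CCNL1 and RSRC2 were upregulated and none of the 35 was downregulated. Among all genes 0.804% were called higher and 0.0607% lower. By adjusted p alone 8 of the 35 were higher, with CLK1, CLK3, CLK4, CCNL2 and SREK1 added, against 2.57% of all genes, and none lower, against 1.22%. Since the list was drawn up with earlier results of these data known, an excess over these shares may be partly built in and is no test. CLK1 and SREK1 kept an adjusted p under 0.05 without any single array, while CCNL2, CLK3 and CLK4 reached 0.162, 0.0938 and 0.0749 in limma, without H133W replicate 3, empty vector replicate 1 and empty vector replicate 3. In all 31 of the 35 changes were above 0, and their median was 0.077, against a median of −0.035 over all genes with 39.7% above 0. Without empty vector replicate 2 they numbered 29, and RBM5 (0.47, limma adjusted p = 0.043) passed by adjusted p alone in place of CCNL2 (0.27, limma adjusted p = 0.117).

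NKTR encodes a large cyclophilin, a protein that turns proline bonds, with an RS-rich tail. Its brightest probe set (202379_s_at) read 10.38, 10.28 and 10.52 in H133W cells, against 9.58, 9.40 and 9.61 in empty vector cells. All H133W arrays lay above all empty vector arrays, and the mean was higher by 0.86 (SE 0.11, a fold change of 1.81, limma adjusted p = 1.08e-04). A pair of dimmer NKTR probe sets, 202380_s_at and 215338_s_at, were also called, at 0.69 and 0.83, and both calls were lost without H133W replicate 3. The remaining 5, with means of 2.86 to 5.67, changed by 0.056 to 0.61 and were not called.

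CCNL1 encodes cyclin L1, the RS-domain partner of the kinase CDK11. It read 10.42, 10.40 and 10.41 in H133W cells, against 9.50, 9.49 and 9.76 in empty vector cells (1555411_a_at). The H133W arrays lay close together and none overlapped the controls, with a mean higher by 0.83 (SE 0.13, 1.78-fold, limma adjusted p = 8.46e-04). The second probe set, 220046_s_at, rose by 0.76 (limma adjusted p = 2.43e-05). Cyclin L2 (CCNL2) was higher by 0.28 (limma adjusted p = 0.0361), below the fold threshold. Its other probe sets, 221427_s_at and 232274_at, were higher by 0.50 (limma adjusted p = 0.0365) and 0.21 (limma adjusted p = 0.143).

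RSRC2, an arginine/serine-rich coiled-coil protein of less well known function, had closely spaced replicates. It read 10.91 on each of the 3 H133W arrays, and 10.16, 10.31 and 10.16 in empty vector cells (202302_s_at). The difference was 0.70 (SE 0.063, 1.63-fold, limma adjusted p = 1.14e-06). Its other probe set (202301_s_at) had a fold change of 2.00, with 10.98, 10.97 and 10.99 in H133W cells and 9.94, 9.85 and 10.15 in empty vector cells. These 3 calls were kept without any single array of the comparison, with changes of 0.79 to 0.92 for NKTR, 0.78 to 0.92 for CCNL1 and 0.68 to 0.75 for RSRC2.

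**Figure D2:**
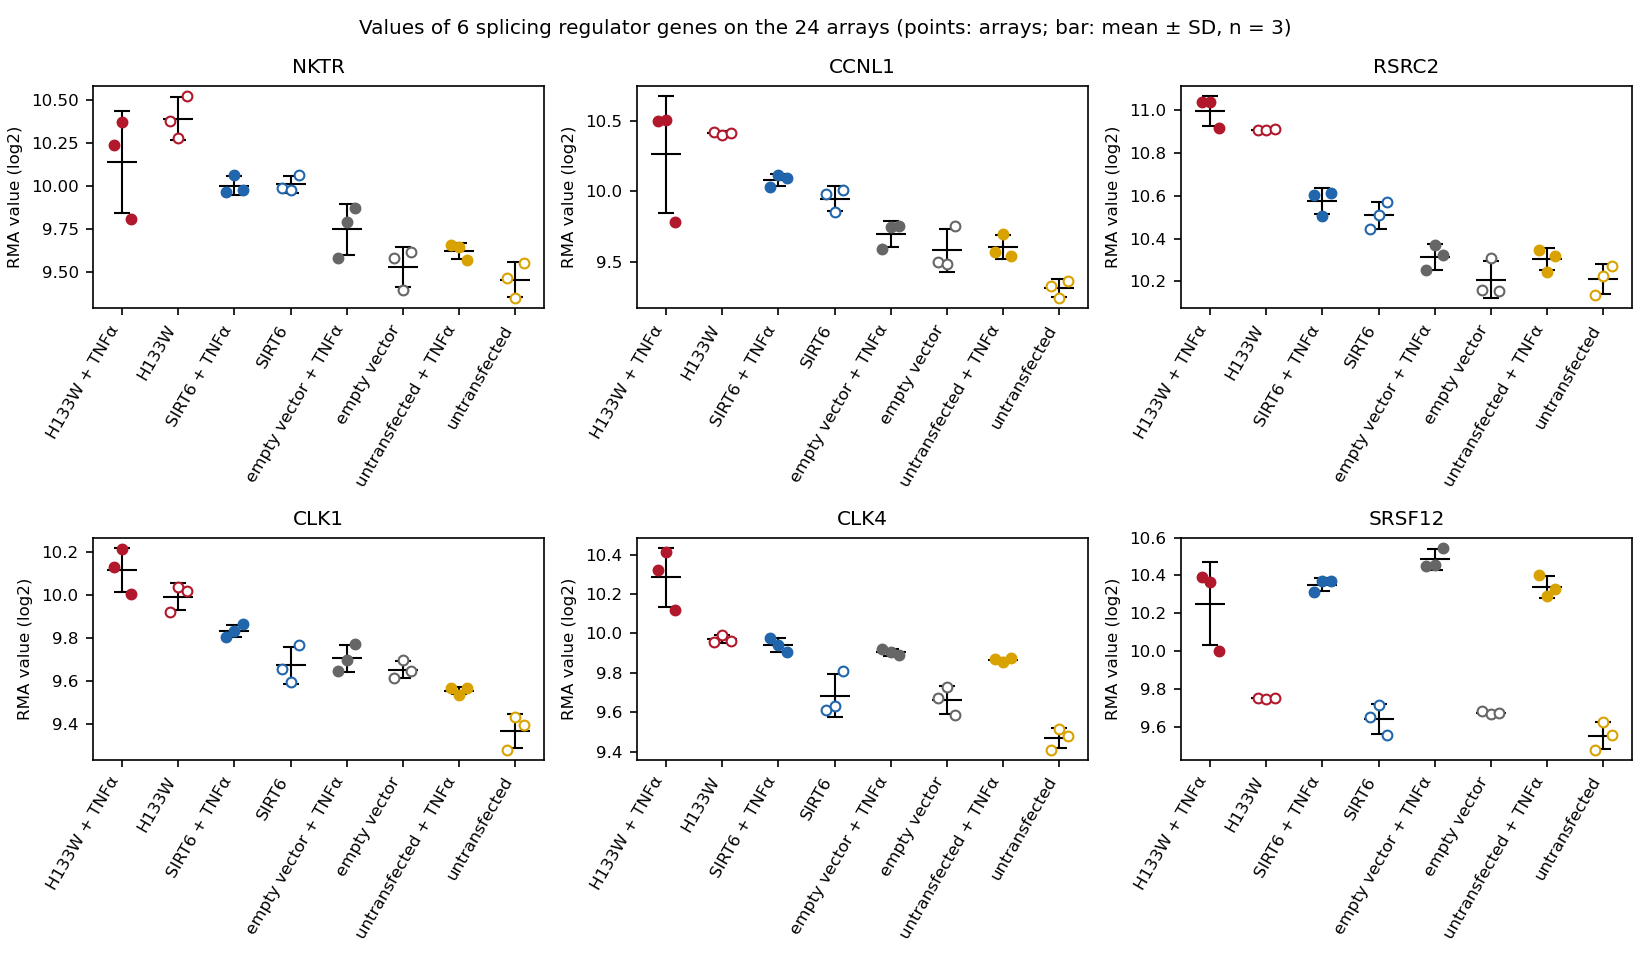
RMA values (log2) of NKTR, CCNL1, RSRC2, CLK1, CLK4 and SRSF12 on the 24 arrays, by condition (points, arrays; bars, mean ± SD, n = 3). NKTR, CCNL1 and RSRC2 had their highest means in H133W cells, for RSRC2 those with TNFα, and their lowest in empty vector and untransfected cells, with SIRT6 cells between them. The share of all genes in such an order was not counted. SRSF12 was separated by TNFα in each kind of cell.

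The sequence just upstream of the genes that moved together is shown for comparison. Each line holds the 250 bases before the RefSeq start of the gene on GRCh38.p14, written 5′ to 3′ along the gene, and capitals mark a match to one of 3 motifs searched on both strands. These were the cyclic AMP response element TGACGTCA, the heat shock type element GAANNTTC and the NFκB type site GGGNNTTCC, all chosen after the values and sequences had been seen.
NKTR: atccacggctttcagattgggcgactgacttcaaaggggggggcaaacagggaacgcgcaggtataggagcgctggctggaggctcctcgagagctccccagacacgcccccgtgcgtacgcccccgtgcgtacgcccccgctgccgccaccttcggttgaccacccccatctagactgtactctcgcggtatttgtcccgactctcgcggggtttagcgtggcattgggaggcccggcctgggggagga
CCNL1: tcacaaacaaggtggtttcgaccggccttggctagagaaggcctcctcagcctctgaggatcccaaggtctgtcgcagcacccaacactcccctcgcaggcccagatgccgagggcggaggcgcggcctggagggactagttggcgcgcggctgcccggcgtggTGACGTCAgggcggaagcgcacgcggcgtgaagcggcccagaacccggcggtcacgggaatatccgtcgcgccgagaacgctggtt
RSRC2: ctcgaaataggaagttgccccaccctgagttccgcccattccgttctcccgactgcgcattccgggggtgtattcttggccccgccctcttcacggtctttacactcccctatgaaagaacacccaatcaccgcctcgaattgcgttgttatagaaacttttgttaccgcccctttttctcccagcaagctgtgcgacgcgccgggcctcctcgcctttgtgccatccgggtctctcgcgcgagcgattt
The NKTR window lies on chr3:42600436-42600685 (+ strand), that of CCNL1 on chr3:157160148-157160397 (− strand) and that of RSRC2 on chr12:122526937-122527186 (− strand). Their GC content was 65.6%, 67.6% and 57.2%, and the median over 35116 promoters of this length was 58.0%. CCNL1 holds a TGACGTCA from 86 to 79 bases before its start, as do the windows of 2.03% of the 27305 genes tested and of no other of the 34 members with a window. NKTR and RSRC2 hold none of the 3 motifs. A match is a run of letters and was not tested as a binding site.

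Of the 4 CLK kinases, CLK1, CLK3 and CLK4 were higher in resting H133W cells by adjusted p, each below the fold threshold, and CLK2 was not. CLK3 moved most. It read 9.50, 9.59 and 9.42 in H133W cells, against 8.74, 9.17 and 9.01 in empty vector cells, with no overlap. The difference was 0.53 (SE 0.12, 1.44-fold, limma adjusted p = 0.0154), and without empty vector replicate 2, the highest of its 3 controls, it was 0.63 and CLK3 was called as well. Its second probe set changed by 0.10 (limma adjusted p = 0.658). CLK1 read 9.92, 10.04 and 10.02 in H133W cells, against 9.62, 9.70 and 9.65 in empty vector cells, higher by 0.34 (limma adjusted p = 0.00523). CLK4 read 9.96, 9.99 and 9.96 in H133W cells and 9.67, 9.73 and 9.59 in empty vector cells, higher by 0.31 (limma adjusted p = 0.0161). Both separated the groups fully on every array. CLK2 changed by 0.0052 (95% interval −0.16 to 0.17).

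None of the 10 measured SR proteins was called in resting H133W cells, by either rule, on its brightest probe set. Their changes lay between −0.056 (SRSF8) and 0.16 (SRSF4), with a median of 0.051. SRSF4, the SR protein known as SRp75, read 10.07, 9.97 and 10.02 in H133W cells and 9.74, 9.90 and 9.94 in empty vector cells, higher by 0.16 (SE 0.066, limma adjusted p = 0.234). SRSF1 and SRSF3, long-studied SR proteins known as ASF/SF2 and SRp20, changed by 0.015 and 0.0033, with 95% intervals of −0.083 to 0.11 and −0.093 to 0.099. TRA2A and TRA2B, the relatives of the fly sex determination factor Transformer-2, changed by 0.013 and −0.022. TRA2B read 11.98, 11.93 and 11.98 in H133W cells and 12.03, 11.99 and 11.94 in empty vector cells, with overlapping arrays. SRSF8 is a near copy of SRSF2, so that its probes may read both.

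For 3 SR proteins a further probe set was called although the brightest was not. On SRSF7, which binds RNA through a zinc knuckle, probe set 213649_at read 9.45, 9.45 and 9.46 in H133W cells and 8.66, 8.67 and 8.77 in empty vector cells, higher by 0.75 (SE 0.073, limma adjusted p = 2.62e-06). The brightest SRSF7 probe set (214141_x_at) read 11.83, 11.82 and 11.78 in H133W cells, against 11.64, 11.81 and 11.72 in empty vector cells, a change of 0.087 with overlapping arrays. On SRSF5 probe set 210077_s_at was higher by 0.71 (5.11, 5.08 and 5.14 in H133W cells, 4.30, 4.37 and 4.52 in empty vector cells). Its brightest probe set changed by 0.052. On SRSF11 probe set 236948_x_at was higher by 0.79 (4.42, 4.51 and 4.66 in H133W cells, 3.81, 3.70 and 3.71 in empty vector cells). Its brightest probe set changed by 0.054. The SRSF5 and SRSF11 probe sets lay below 5 on the log2 scale on average, and the SRSF11 call was lost without H133W replicate 3. The files do not say which part of the transcript each probe set reads. Of the 104 further probe sets 7 were called in all, the other 4 being those of NKTR, CCNL1 and RSRC2 above, and over the whole array 0.702% of probe sets were called higher. By adjusted p alone 12 of the 104 were higher, against 2% of all probe sets, with 1 of CCNL2, 3 of LUC7L and 1 of SRSF12 (0.26, limma adjusted p = 0.046) added. Without H133W + TNFα replicate 3 in the shared spread 8 of the 104 were called by both thresholds, with SREK1 244287_at added. The share over all probe sets was not counted in that run.

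**Figure D3:**
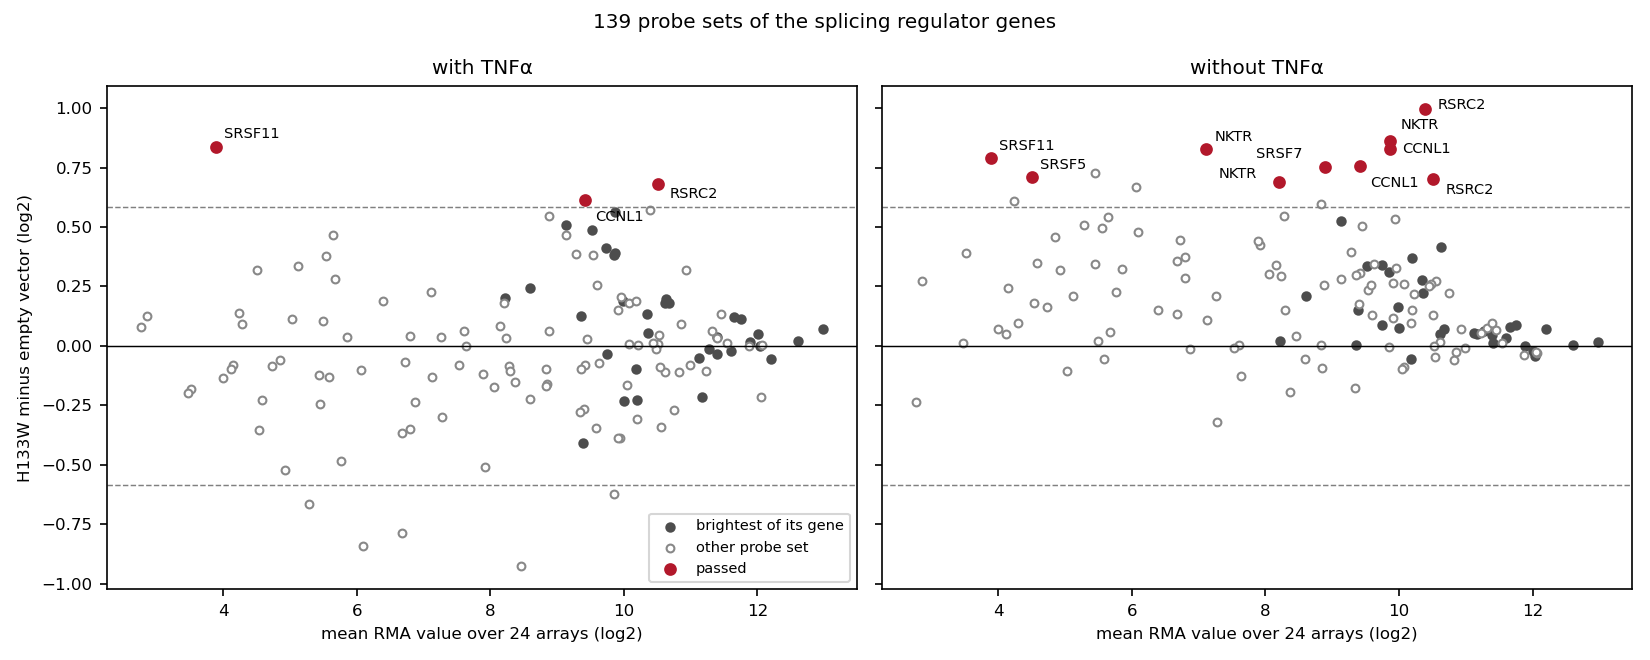
Change in H133W cells against empty vector cells (log2) of the 139 probe sets of the splicing genes, by their mean value over 24 arrays (log2), with TNFα (left) and without (right). Dark points are the brightest probe set of a gene, open points the others and red points those that passed both thresholds, with dashed lines at a fold change of 1.5. Without TNFα 10 probe sets passed, all higher, and with TNFα 3, where 0.702% and 1.05% of all probe sets were called higher. The open points without TNFα lie mostly above 0 (83 of 104, and 75 without empty vector replicate 2). Of all genes, read by their brightest probe set, 39.7% lay above 0 without TNFα.

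None of the coactivators and speckle proteins other than RSRC2 was called in resting H133W cells on its brightest probe set. SREK1, a regulator with an RS domain that acts together with SR proteins, was higher by adjusted p, by 0.42 (SE 0.080, limma adjusted p = 0.00514). It read 10.89, 10.84 and 10.83 in H133W cells and 10.54, 10.34 and 10.43 in empty vector cells, with no overlap. SON and SRRM2, which hold the speckles together, changed by 0.034 and −0.0011, and SRRM1, a coactivator that bridges SR proteins and the spliceosome, ACIN1, a protein bound near exon junctions, and PNISR by 0.021 to 0.079. RSRC1 changed by 0.15, and by −0.029 without empty vector replicate 2, on which it read 8.94 against 9.39 and 9.57.

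LUC7L, a relative of the yeast U1 snRNP protein Luc7, had the largest change of its group but a wide error. It read 10.38, 10.47 and 10.45 in H133W cells and 10.08, 9.87 and 10.24 in empty vector cells, a difference of 0.37 (SE 0.18, 95% interval −0.011 to 0.75, limma adjusted p = 0.357). Without H133W + TNFα replicate 3 in the shared spread the same difference had an adjusted p of 0.00864 in limma. The adjusted p of many genes fell in that run. By adjusted p alone 7.75% of all genes then passed this comparison, against 3.79% with all arrays, and 9 members against 8. Of its other probe sets 3 were higher by adjusted p, below the fold threshold and with no overlap, 223295_s_at by 0.26 (limma adjusted p = 0.00544), 223546_x_at by 0.33 (limma adjusted p = 0.0263) and 220143_x_at by 0.27 (limma adjusted p = 0.0424). The last, 1557066_at, changed by 0.29 (limma adjusted p = 0.616). LUC7L2, LUC7L3 and PRPF38B, a relative of the yeast spliceosome protein Prp38, changed by 0.087, 0.071 and 0.22. RBM5, a splicing regulator from a tumour suppressor region of chromosome 3, read 9.69, 9.81 and 9.92 in H133W cells and 9.23, 9.74 and 9.45 in empty vector cells. These arrays overlapped and the difference of 0.34 was not called (limma adjusted p = 0.151). RBM6, its neighbour gene, changed by 0.21, and RBM25 and RBM39, RNA-binding proteins with RS-rich tails or stretches, by 0.063 and 0.046.

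With TNFα the comparison of H133W and empty vector cells gave fewer calls. RSRC2 alone was called, and no member was lower, where 1.44% of all genes were called higher and 0.283% lower. RSRC2 read 11.04, 11.04 and 10.92 in H133W + TNFα cells and 10.25, 10.37 and 10.32 in empty vector + TNFα cells, higher by 0.68 (SE 0.063, limma adjusted p = 1.25e-06). On the 6 arrays of the comparison alone its adjusted p was 0.0518 in limma. Its other probe set (202301_s_at) was higher by 0.57 with all arrays, under the fold threshold, and was called without H133W + TNFα replicate 3. By adjusted p alone 7 members were higher, CCNL1 (0.56), CLK3 (0.51), RBM5 (0.49), CLK1 (0.41), NKTR (0.39), CLK4 (0.38) and RSRC2, against 4.49% of all genes, and none lower, against 2.42%. NKTR stayed under 0.05 in limma without H133W + TNFα replicate 3 and lost it without any other array of the comparison (adjusted p = 0.0594 to 0.197).

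With all arrays NKTR and CCNL1 differed less here than in resting cells, and each read low on 1 array. The interaction of H133W and TNFα did not pass for either (limma adjusted p = 0.567 and 0.616). CCNL1 read 10.50, 10.50 and 9.79 in H133W + TNFα cells, against 9.59, 9.75 and 9.75 in empty vector + TNFα cells, and NKTR read 10.24, 10.37 and 9.81 in H133W + TNFα cells, against 9.58, 9.79 and 9.87 in empty vector + TNFα cells. Replicate 3, the array with the largest β-actin difference, was the low value in both. Without it CCNL1 was higher by 0.80 (limma adjusted p = 7.1e-06) and was called beside RSRC2 (0.72), and NKTR by 0.56 (limma adjusted p = 0.00131), just under the fold threshold, against 0.83 and 0.86 in resting cells. CCNL1 was also called without empty vector + TNFα replicate 2 or 3, and without replicate 1 its limma adjusted p was 0.0738. Its second probe set (220046_s_at) was called with all arrays (0.61), and not without H133W + TNFα replicate 1 or 2 or empty vector + TNFα replicate 1. Of the 104 further probe sets SRSF11 236948_x_at was called too, where 1.05% of all probe sets were called higher. It is dim (mean 3.89) and kept its call without any single array of the comparison (0.72 to 0.91). Without H133W + TNFα replicate 3 the further probe sets called were 4, with CCNL1 1555827_at and RSRC2 202301_s_at added. By adjusted p alone and with all arrays 9 of the 104 were higher and 1 lower. Of all genes, read by their brightest probe set, 4.49% and 2.42% were, and the shares over all probe sets were not counted by this rule. Above 0 were 24 of the 35 members with all arrays, where 54% of all genes were, and 29 without H133W + TNFα replicate 3. The median of the members moved from 0.070 to 0.096 and that of all genes from 0.014 to −0.018. Of the 104 further probe sets 46 and 77 were above 0, and the share over all probe sets was not counted. The 3′-rich array did not read every member low, since CLK3 (9.34, 9.38 and 9.71) and RBM5 (9.72, 9.85 and 10.16) were highest on it. Without it their differences were 0.39 and 0.36, with limma adjusted p = 0.0807 and 0.0981, and without H133W + TNFα replicate 1 RBM5 was called (0.59).

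CLK1 and CLK4 depended on it less. CLK1 read 10.13, 10.21 and 10.01 in H133W + TNFα cells and 9.65, 9.70 and 9.77 in empty vector + TNFα cells, higher by 0.41 (SE 0.065, limma adjusted p = 6.83e-04). CLK4 read 10.32, 10.41 and 10.12 in H133W + TNFα cells, against 9.92, 9.90 and 9.89 in empty vector + TNFα cells, higher by 0.38 (SE 0.070, limma adjusted p = 0.00248). Neither gene had overlapping arrays, and without replicate 3 the differences were 0.47 and 0.46. The lowest difference of a member was that of RSRC1, −0.41 (limma adjusted p = 0.196), which read 9.26, 9.31 and 8.34 in H133W + TNFα cells and 9.45, 9.40 and 9.29 in empty vector + TNFα cells, and −0.097 without replicate 3. SREK1 was higher by 0.20 with all arrays and by 0.29 without replicate 3 (limma adjusted p = 0.0292). LUC7L was low on that array as well and read 10.32, 10.43 and 9.30 in H133W + TNFα cells, and its difference was −0.23 with this array and 0.13 without it.

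**Figure D4:**
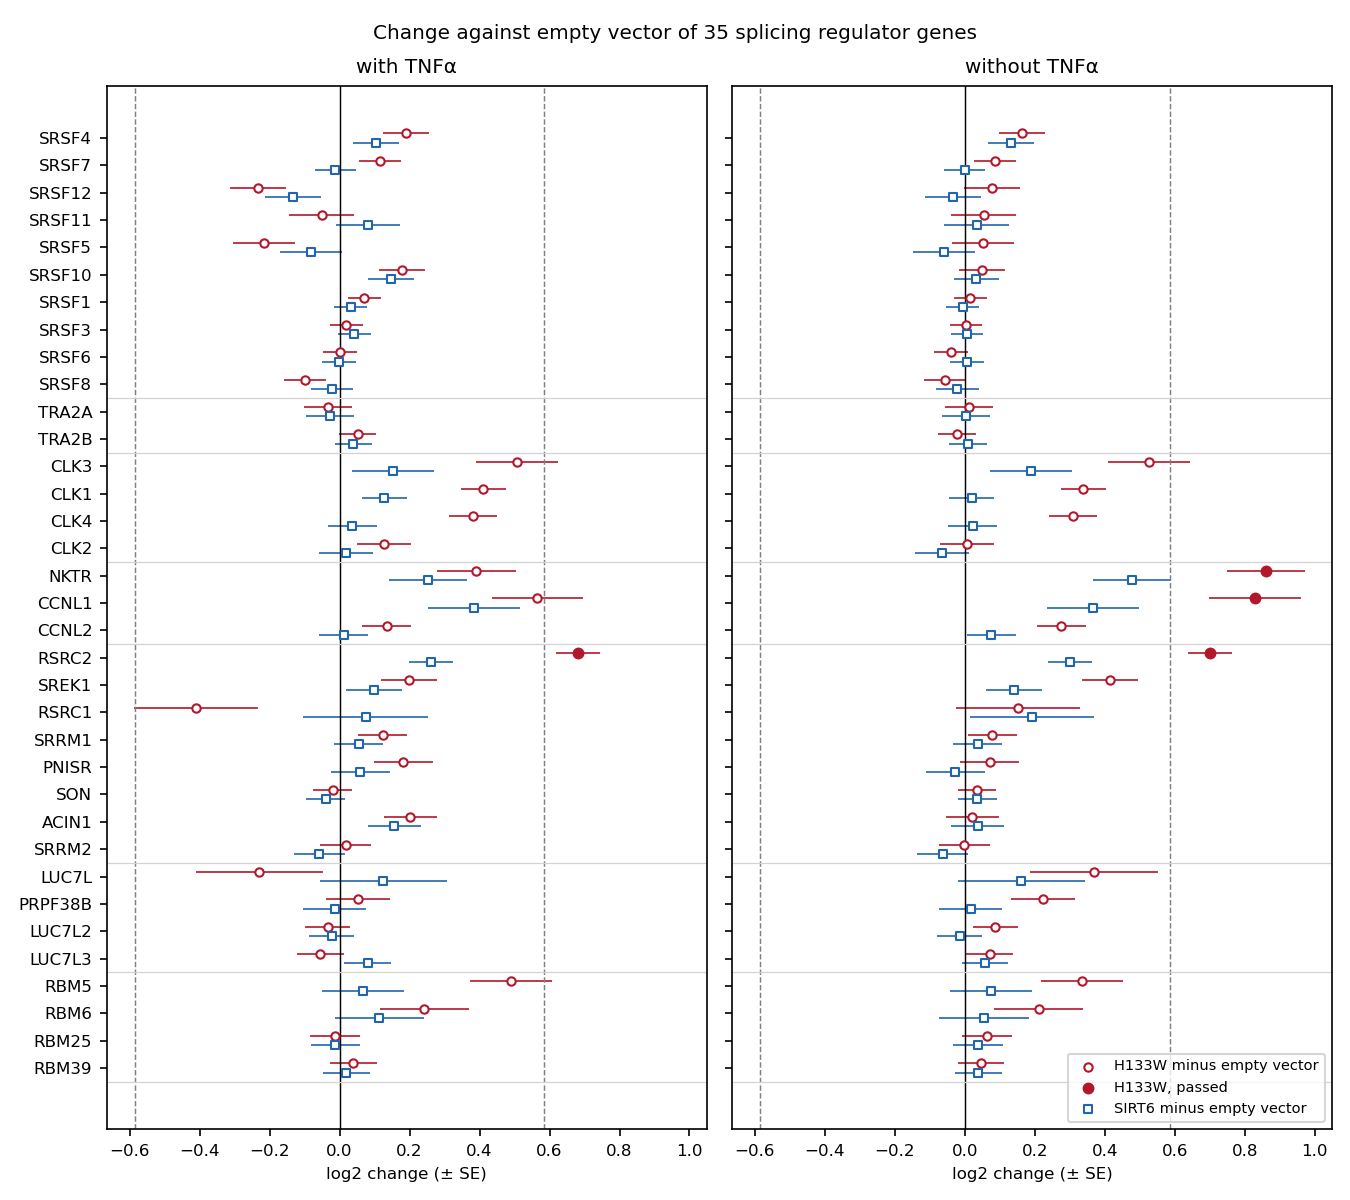
Change of the 35 measured genes against empty vector (log2, mean ± SE, n = 3 arrays per condition) in H133W cells (circles) and SIRT6 cells (squares), with TNFα (left) and without (right), grouped by role, with dashed lines at a fold change of 1.5. Filled circles passed both thresholds: RSRC2 with TNFα, and NKTR, CCNL1 and RSRC2 without. No square passed.

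Wild type SIRT6 was set against empty vector in the same way. No member was called in either direction, resting or with TNFα, where 0.0506% and 0.0961% of all genes were called higher and 0% and 0.00506% lower, and a plain linear model called none either. At an unadjusted p under 0.05 there were 3 members in resting cells and 4 with TNFα, against 5.07% and 6.73% of all genes. NKTR read 9.99, 9.98 and 10.07 in resting SIRT6 cells, a difference from empty vector of 0.48 (95% interval 0.25 to 0.71, limma adjusted p = 0.168). CCNL1 read 9.98, 9.85 and 10.01 (0.37, 95% interval 0.094 to 0.64, limma adjusted p = 0.67), and RSRC2 10.45, 10.51 and 10.57 (0.30, 95% interval 0.17 to 0.43, limma adjusted p = 0.092). All SIRT6 arrays of these genes lay above those of empty vector cells and below those of H133W cells. The share of all genes in this order was not counted, and these genes were picked by their H133W difference from the same empty vector arrays. With TNFα NKTR, CCNL1 and RSRC2 differed from empty vector by 0.25, 0.38 and 0.26. Without H133W + TNFα replicate 3, which these comparisons do not hold, NKTR, CCNL1 and RSRC2 had limma adjusted p = 0.0157, 0.0377 and 0.0342 in resting cells and CCNL1 had 0.0229 with TNFα, against 0.273% and 0.516% of all genes past that threshold, all still below the fold threshold. The intervals of most other members were narrow, such as −0.12 to 0.16 for CLK1 and −0.12 to 0.17 for CLK4 in resting cells, where H133W cells differed from empty vector cells by 0.34 and 0.31. CLK3, with a wider error, was higher by 0.19 in resting SIRT6 cells, where H133W cells differed from empty vector cells by 0.53. Both comparisons use the same empty vector arrays.

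The mutant was also compared with the wild type directly. None of the 35 was called, where 0.137% of all genes were called higher and 0.0303% lower in resting cells, and 0.344% and 0.0708% with TNFα. A plain linear model called none, and at an unadjusted p under 0.05 in limma there were 10 and 7 members, against 9.12% and 15.7% of all genes. By adjusted p alone RSRC2 (0.40, limma adjusted p = 0.00325) and CLK1 (0.32, limma adjusted p = 0.0317) were higher in resting H133W cells than in SIRT6 cells, against 0.531% of all genes, and no member was lower, against 0.091%. With TNFα RSRC2 (0.42), CLK4 (0.35) and CLK1 (0.28) were higher, against 1.22% of all genes, and none lower, against 0.329%. Leaving out single arrays, CLK1 reached an adjusted p of 0.189 in resting cells (without SIRT6 replicate 2) and 0.143 with TNFα (without SIRT6 + TNFα replicate 1), CLK4 reached 0.0954 (without SIRT6 + TNFα replicate 3), and RSRC2 stayed under 0.05. CLK1 read 9.92, 10.04 and 10.02 in resting H133W cells and 9.66, 9.60 and 9.77 in SIRT6 cells, with no overlap. NKTR and CCNL1 differed by 0.38 and 0.46 in resting cells, with adjusted p = 0.204 and 0.179 in limma. Without H133W + TNFα replicate 3 these were 0.0286 and 0.00259, CLK4 (0.29) had 0.0168, and 5 members passed by adjusted p in resting cells, against 1.31% of all genes. With TNFα CCNL1 was then higher by 0.42 (limma adjusted p = 0.0175) and 4 members passed, against 1.07%, and without empty vector replicate 2 RBM5 passed there (0.42, limma adjusted p = 0.049). Of the further probe sets, SRSF5 210077_s_at (0.83) and SRSF11 236948_x_at (0.75) were called in resting cells, and SRSF11 236948_x_at with TNFα too (0.71), where 0.106% and 0.278% of all probe sets were called higher. The SRSF5 call was lost without SIRT6 replicate 2 and the resting SRSF11 call without each of the 6 arrays in turn, and the SRSF11 call with TNFα without replicate 2 or 3 of either condition. On SRSF7 213649_at SIRT6 cells read 8.96, 8.94 and 8.97, between the H133W and empty vector arrays, and H133W was higher by 0.50 (limma adjusted p = 0.0017).

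TNFα was set against the carrier in each kind of cell, and 1 member was called. SRSF12, also known as SRrp35, is an SR protein that can oppose the others in splice site choice, and it was upregulated in 3 of the 4 kinds of cell. It read 10.31, 10.37 and 10.37 in SIRT6 + TNFα cells and 9.65, 9.71 and 9.56 in SIRT6 cells (239295_at). In empty vector cells it read 10.45, 10.46 and 10.55 with TNFα and 9.68, 9.67 and 9.67 without. Untransfected cells gave 10.40, 10.29 and 10.33 with TNFα and 9.48, 9.62 and 9.56 without. The arrays with and without TNFα were fully separated in each, and the differences were 0.71, 0.81 and 0.79 (SE 0.080, limma adjusted p = 1.2e-05, 1.93e-06 and 2.62e-06), fold changes of 1.64, 1.75 and 1.73. Among all genes TNFα raised 0.779% in SIRT6 cells, 0.784% in empty vector cells and 0.845% in untransfected cells, and lowered 0.506%, 0.47% and 0.334%. No member was among the lowered genes.

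The H133W arrays of SRSF12 read 10.39, 10.36 and 10.00 with TNFα and 9.75 on each array without. The difference of 0.50 (limma adjusted p = 8.16e-04) fell short of the fold threshold, so that no member was called there, against 0.774% of all genes higher and 0.642% lower. At an unadjusted p under 0.05 there were 7 members, against 18.3% of all genes, and a plain linear model called none. Without the 3′-rich replicate 3 it was 0.63 and was called (limma adjusted p = 2.02e-06). The second SRSF12 probe set, 1552381_at, did not single out that array. It read 9.29, 9.32 and 9.30 in H133W + TNFα cells and 8.79, 8.75 and 8.80 in H133W cells, higher by 0.52, and it rose by 0.76, 0.72 and 0.90 in SIRT6, empty vector and untransfected cells. The difference between the TNFα response of H133W cells and that of empty vector cells was −0.31 on the first probe set (unadjusted p = 0.0127 from limma, adjusted p = 0.567) and −0.19 on the second (unadjusted p = 0.0598), and the response is not shown to differ.

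The 250 bases before the start of SRSF12, on chr6:89118072-89118321 (− strand) of GRCh38.p14 from RefSeq, are shown because NFκB is the best known mediator of TNFα. Capitals mark a match to GGGNNTTCC read on the opposite strand.
SRSF12: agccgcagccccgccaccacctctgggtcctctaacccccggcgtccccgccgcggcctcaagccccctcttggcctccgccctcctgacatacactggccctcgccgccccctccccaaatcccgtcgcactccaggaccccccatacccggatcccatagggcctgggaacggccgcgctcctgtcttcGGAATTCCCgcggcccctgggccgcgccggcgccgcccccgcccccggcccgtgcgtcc
The match GGAATTCCC lies 59 to 51 bases before the start, in a window of 75.6% GC. Such a match is present in the windows of 7.01% of all genes and of 2 of the 34 members, SRSF12 and SON. SON was not called with TNFα (changes of 0.0092 to 0.085 over the 4 kinds of cell). The heat shock type motif was found in 7.05% of all genes and in SRSF8 alone among members.

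CLK4 also rose with TNFα by adjusted p, below the fold threshold. It read 10.32, 10.41 and 10.12 in H133W + TNFα cells and 9.96, 9.99 and 9.96 in H133W cells, and 9.87, 9.86 and 9.88 in untransfected + TNFα cells and 9.41, 9.51 and 9.48 in untransfected cells. The differences were 0.31 (limma adjusted p = 0.0149, and 0.0653 without H133W replicate 1) and 0.40 (limma adjusted p = 0.00219). SIRT6 cells gave 0.26 (limma adjusted p = 0.0657) and empty vector cells 0.24 (limma adjusted p = 0.0914), and in all 4 kinds of cell the arrays with TNFα lay above those without. Without H133W + TNFα replicate 3 these values had limma adjusted p = 0.0133 and 0.0199, and CCNL1 in untransfected cells (0.29) had 0.0352. In that run 4.95%, 5.09% and 3.58% of all genes passed by adjusted p in SIRT6, empty vector and untransfected cells. With all arrays it was 3.18%, 2.98% and 2.46%. A second probe set, 210346_s_at, gave 0.45, 0.41, 0.26 and 0.31 in H133W, SIRT6, empty vector and untransfected cells. By adjusted p alone 1.81%, 1.42%, 1.45% and 1.49% of all genes were higher in the same order, and 2.46%, 1.76%, 1.54% and 0.966% lower, with no member lower in any. The other 33 genes changed with TNFα by −0.48 (RSRC1 in H133W cells, with the low array of replicate 3) to 0.29 (CCNL1 in untransfected cells). The median change of the 35 was 0.055, 0.081, 0.085 and 0.074 in H133W, SIRT6, empty vector and untransfected cells, against 0.011, −0.028, −0.041 and −0.023 over all genes.

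**Figure D5:**
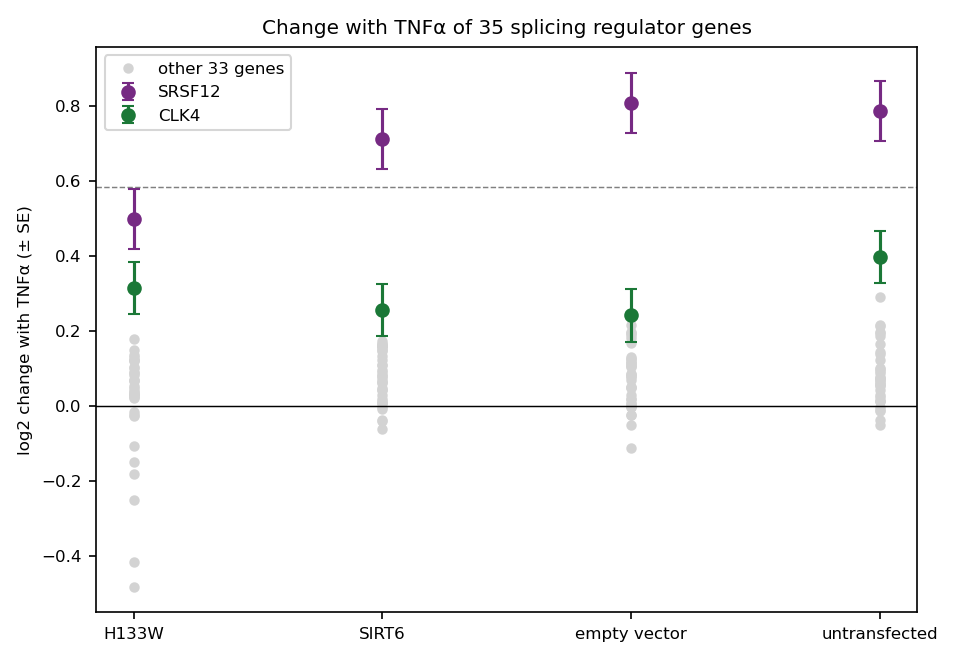
Change with TNFα (log2) of the 35 measured genes in H133W, SIRT6, empty vector and untransfected cells, with SRSF12 and CLK4 shown as mean ± SE (n = 3 arrays per condition) and the other 33 genes as grey points. The dashed line is a fold change of 1.5, which SRSF12 passed in all but H133W cells.

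No member showed an interaction of vector and TNFα at an adjusted p under 0.05. For H133W 2 of all genes did, 0.0101%, and for SIRT6 and empty vector 0%. At an unadjusted p under 0.05 the H133W interaction had 5 members, LUC7L (−0.60), RSRC1 (−0.56), NKTR (−0.47), SRSF12 (−0.31) and SRSF5 (−0.27), against 6.91% of all genes, and those of SIRT6 and empty vector had none, against 1.58% and 2.06%. Without H133W + TNFα replicate 3 these 5 values were −0.24, −0.25, −0.30, −0.18 and −0.15.

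Transfection with the vector alone called no member, resting or with TNFα, where 0.0607% and 0.0303% of all genes were called higher than in untransfected cells and 0% lower in both. At an unadjusted p under 0.05 there were 7 and 3 members, against 10.9% and 8.99% of all genes, and a plain linear model called none. The largest change was that of CLK1, 0.28 in resting cells (limma adjusted p = 0.0749, and 0.0277 without H133W + TNFα replicate 3, against 0.769% of all genes), with 9.62, 9.70 and 9.65 in empty vector cells and 9.28, 9.43 and 9.40 in untransfected cells. By adjusted p alone a probe set of SRSF1 (226419_s_at) was higher by 0.48 (limma adjusted p = 0.0459) and SRSF7 213649_at by 0.37 (limma adjusted p = 0.0374), against 0.214% of all probe sets. The SRSF7 probe set read 9.45, 9.45 and 9.46 in H133W cells, 8.96, 8.94 and 8.97 in SIRT6 cells, 8.66, 8.67 and 8.77 in empty vector cells and 8.32, 8.21 and 8.46 in untransfected cells, with no overlap between neighbours in this order. How many other probe sets show such an order was not counted. Over the 8 condition means CCNL1 had the widest range, 1.10, followed by NKTR (0.94), SRSF12 (0.93), CLK4 (0.82) and RSRC2 (0.79). SRSF3, SRSF1 and SRSF6 had the narrowest, 0.049 to 0.070.

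Other parts of the splicing machinery were counted from lists of general knowledge. Of 46 measured core spliceosome genes and 10 further kinases that act on SR proteins or splicing, none was called in resting H133W cells. Their medians were −0.052 and 0.018. In that comparison 0.804% of all genes were called higher and 0.0607% lower. At these shares a count of 0 does not set lists this short apart from other genes. Of 22 hnRNP proteins, which often counter SR proteins, PTBP2 alone was called, higher by 0.63 (limma adjusted p = 0.00336), and with TNFα it was higher by 0.83 (limma adjusted p = 1.86e-04). PTBP2 is the form of the polypyrimidine tract binding protein known from neurons. Of 11 genes of nonsense-mediated decay, the pathway that removes transcripts with early stop codons, none was called in resting H133W cells. With TNFα SMG5 was higher by 0.64 (limma adjusted p = 0.0288), where 1.44% of all genes were called higher. The genes of these lists, PTBP2 and SMG5 among them, were not examined without H133W + TNFα replicate 3 or empty vector replicate 2. No gene of these lists was called in SIRT6 cells, with TNFα alone or with empty vector, where the shares of all genes were the low ones given above.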

How the data were processed

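Intensities of 54675 probe sets on each of the 24 arrays had been background corrected, quantile normalized and summarized by RMA by the authors, who deposited them on the log2 scale. They were used as deposited. Gene symbols came from the platform annotation, in which 41097 probe sets name a single gene. The members and lists were chosen with earlier results of these data known. A linear model with 1 mean per condition was fitted in R 4.3.3 with limma 3.58.1 (residual degrees of freedom 16), and the script was tested on simulated data. Array by array values were given for members called in any comparison, for the member of each role group with the largest change in resting H133W cells, and for others chosen after their values were seen. Replicates are biological per the labels. Alternatives were a plain linear model, the arrays of a comparison alone, no dim probe sets, renormalization, no fold threshold, the second probe set, a replicate block and leaving out arrays. Same-numbered arrays were not shown to pair. Promoter sequences are RefSeq's on GRCh38.p14, for 34 of 37 members.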

Additional observations from a re-analysis of the deposited data

How the results depend on the processing

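The calls of NKTR, CCNL1 and RSRC2 in resting H133W cells held under each alternative run. Without a fold threshold the members called were 8 for H133W against empty vector in resting cells, 7 with TNFα, 2 and 3 for H133W against SIRT6 resting and with TNFα, and 2 each for TNFα in H133W and in untransfected cells. For H133W against empty vector with TNFα the count was 0 on the arrays of the comparison alone, where RSRC2 had an adjusted p of 0.0518 in limma on fewer arrays, and 2 without the 3 arrays of lowest weight. With the second probe set it was CCNL1 that passed and not RSRC2. TNFα in H133W cells gave 1, SRSF12, without those 3 arrays. Leaving out each array in turn gave 3 to 4 members for H133W against empty vector in resting cells (CLK3 added without empty vector replicate 2), 1 to 2 with TNFα and 0 to 1 for TNFα in H133W cells, where RSRC1 was called lower without H133W + TNFα replicate 1 and SRSF12 higher without replicate 3. Leaving H133W + TNFα replicate 3 or empty vector replicate 2 out of comparisons that do not hold them, chosen after the data were seen, moved no count of members called by both thresholds. The counts of the other comparisons did not move, at 1 for TNFα in SIRT6, empty vector and untransfected cells and 0 for the rest.

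Replicate numbers were also fitted as a block, which gave 3 members for H133W against empty vector in resting cells and 1 with TNFα and changed no other count of members. Correlations of same-numbered deviations went down to −0.383, and no comparison had all of them above 0.1. For H133W against empty vector in resting cells each array correlated best with its own number, though weakly (0.0487, 0.132 and 0.107). The numbers are thus not shown to pair the samples. Quantile normalization and centring shifted the changes of all probe sets by a median of at most 0.051 in any comparison or interaction. The number of arrays and dim probe sets limit what small differences can show.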
